A study of Mus musculus with 5 samples.

Results

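The 39 genes described here make up the antioxidant and glutathione system as it was listed for mouse bone marrow mesenchymal stem cells under negative pressure. The list holds the NRF2 regulators and their usual target enzymes, the enzymes that make and recycle glutathione, the thioredoxin and peroxiredoxin proteins, the glutathione peroxidases and transferases, the superoxide dismutases and catalase, a pair of sugar-phosphate enzymes and both ferritin subunits. The genes were found by symbol in the deposited table, and each of the 39 symbols matched 1 of the 55401 Ensembl gene IDs.

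Total RNA was sequenced from WT mouse bone mesenchymal stem cells of bone marrow origin, abbreviated BMSC in the labels. All cells were grown in flasks for 72 h. A vacuum pump then held 4 of the cultures at -80, -120, -160 or -200 mmHg without interruption for 48 h, and the control is labelled 0 mmHg. No holding time is stated for the control, so whether its total culture time matched is not known. Each of the 5 conditions is 1 library, with no replicate, so no difference was tested and no p-value is given. The age and sex of the mice, the number of mice and the passage are not stated in the labels.

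NRF2 is a transcription factor that KEAP1 marks for degradation in resting cells, and oxidants or electrophiles that modify KEAP1 let NRF2 enter the nucleus and bind antioxidant response elements with small MAF proteins. Its targets include enzymes that build glutathione, reduce quinones, degrade haem and regenerate thioredoxin. Glutathione peroxidases and peroxiredoxins reduce peroxides with electrons from glutathione or thioredoxin, and NADPH keeps both systems reduced. In marrow stromal cells, reactive oxygen species are known to affect self-renewal and the choice between bone and fat.

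Library totals were inferred from the deposited values and exon lengths, with the smallest nonzero value of a library taken as 1 read. They were 16600622 to 18056998 reads under pressure, against 18398911 in the control. Values are FPKM (reads scaled by exon length and library depth), and a change is the difference in log2(FPKM + 1) from the control library, a scale that understates the change of low genes. A gene was called higher or lower where that difference reached 1 in size, among the 12113 genes whose 5 libraries averaged 1 FPKM or more. Of the 39 genes, 38 passed this filter, each with at least 1 FPKM in every library, and Gpx3 did not. Intervals beside a ratio of FPKM are 95% exact Clopper-Pearson intervals from the reads of 2 libraries. They cover counting error only and say nothing of how far cultures of 1 condition differ.

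The control and the pressure libraries differed in more than pressure. Among Y-linked genes, 4 were picked because each had 0 reads at all 4 pressures but at least 100 control reads. Their control reads summed to 2493. The 0 was thus a condition of the choice, and a count of Y-linked genes chosen on the control alone is not given. Of 24 Hox genes that passed the filter, 9 were higher and 1 was lower at all 4 pressures, beside 6.49% and 4.46% of all genes. Origin of the cells and pressure therefore cannot be told apart in any comparison with the control, including each one given here. Prdx4 and G6pdx lie on the X chromosome. Among marrow stromal markers, 11 of 13 passed the filter, and their summed level was 2263 to 2503 FPKM under pressure, against 3652 FPKM in the control. They did not move together: Ly6a had 622 to 828 FPKM under pressure, against 1740.5 FPKM in the control, and Col1a1 435 to 564 FPKM, against 929.6 FPKM, whereas Itgb1 had 267 to 296 FPKM, against 179 FPKM, and Pdgfra 63.7 to 71.5 FPKM, against 44.3 FPKM. Thy1 had 51 to 91 reads under pressure, against 1 in the control, while Lepr and Nt5e stayed under the filter. Of 8 blood and macrophage markers 3 passed, with a summed level of 60.9 to 67.1 FPKM under pressure, against 43.7 FPKM in the control. Most of that sum was Cd34, with 42.6 to 51.2 FPKM under pressure, against 39.7 FPKM in the control. Itgam had 0 reads in every library and Ptprc at most 2, but the macrophage genes Cd68 and Lyz2 were higher at all 4 pressures, with Lyz2 at 9.83 to 12.3 FPKM under pressure, against 1.57 FPKM in the control. None of 5 endothelial and none of 5 red cell markers passed. The part of these differences in the results was not tested, and in a bulk culture fewer cells of a type and less RNA per cell cannot be told apart.

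Across the list, 7 of the 38 measured genes stood apart from the control in the same direction at all 4 pressures. Hmox1, Gpx7 and Gstt1 were higher, and Nqo1, Prdx4, Gsta4 and Mgst3 were lower. These are 7.89% of the measured members higher, beside 6.49% of all genes that passed the filter, and 10.5% lower, beside 4.46% of all genes. Another 3 passed the size rule at some of the pressures, namely Txn1 and Sod1 as lower and Fth1 as higher. The other 28 members passed it at no pressure, as did 78.1% of all genes.

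At -80 mmHg, 3 members were higher and 6 were lower, beside 10.7% and 6.89% of all genes. At -120 mmHg, 3 were higher and 5 lower, beside 8.85% and 6.45%. At -160 mmHg, 3 were higher and 6 lower, beside 9.59% and 6.03%. At -200 mmHg, 4 were higher and 4 lower, beside 9.10% and 6.38%. The median change of the members was -0.21, -0.15, -0.22 and -0.14 in order of increasing suction, while that of all genes was 0.16, 0.14, 0.15 and 0.14. The members' median minus that of all genes was -0.37, -0.29, -0.37 and -0.27 on the log2 scale. Of the members, 14 were above the control at all 4 pressures, 19 were below it at all 4 and 5 had mixed signs, whereas 51.5% of all genes were above and 33.3% below at all 4.

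**Figure D1:**
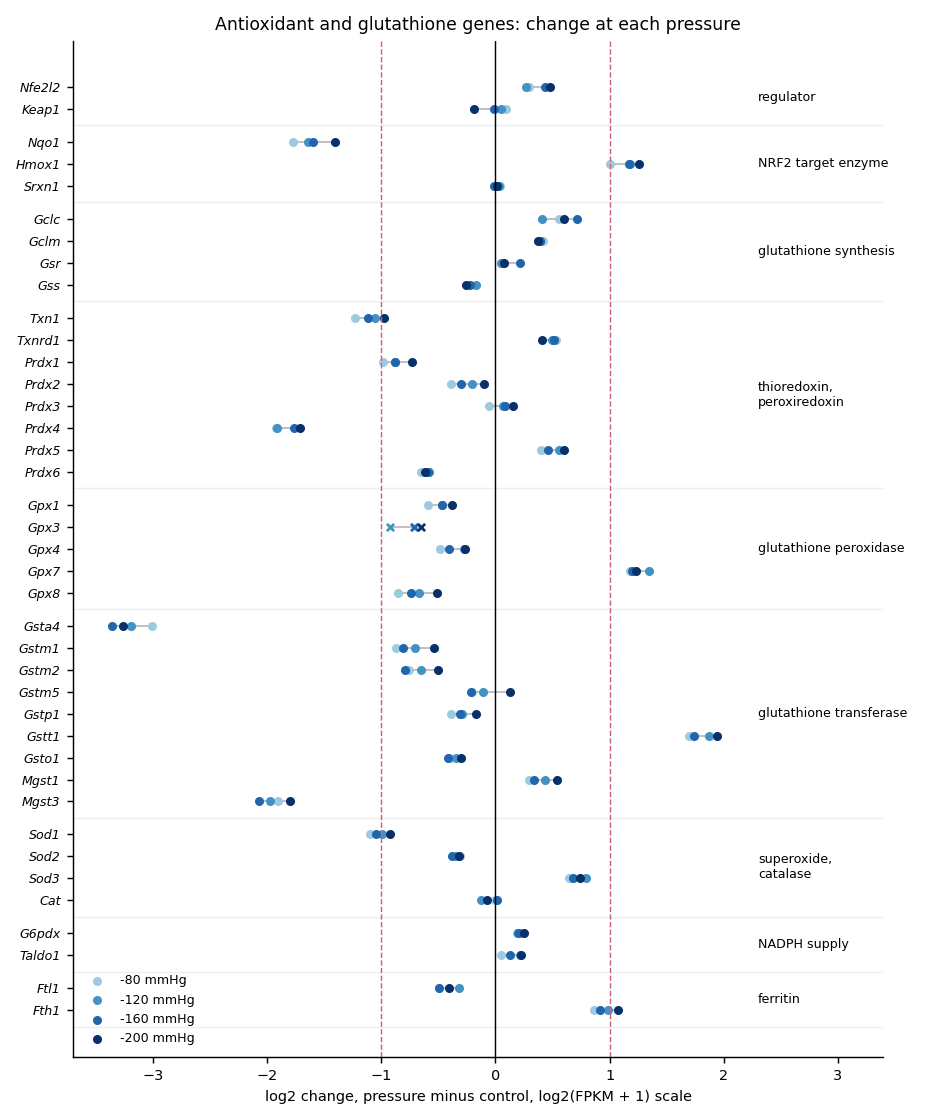
Change of each member from the control library, as the difference in log2(FPKM + 1), at -80, -120, -160 and -200 mmHg (1 point per library), with genes grouped by role, dashed lines at a difference of 1 in either direction and crosses for Gpx3, which did not pass the filter. The 4 points of a gene lie close together: Gstt1 sits farthest right, between 1.69 and 1.94, and Gsta4 farthest left, between -3.36 and -3.01.

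**Figure D2:**
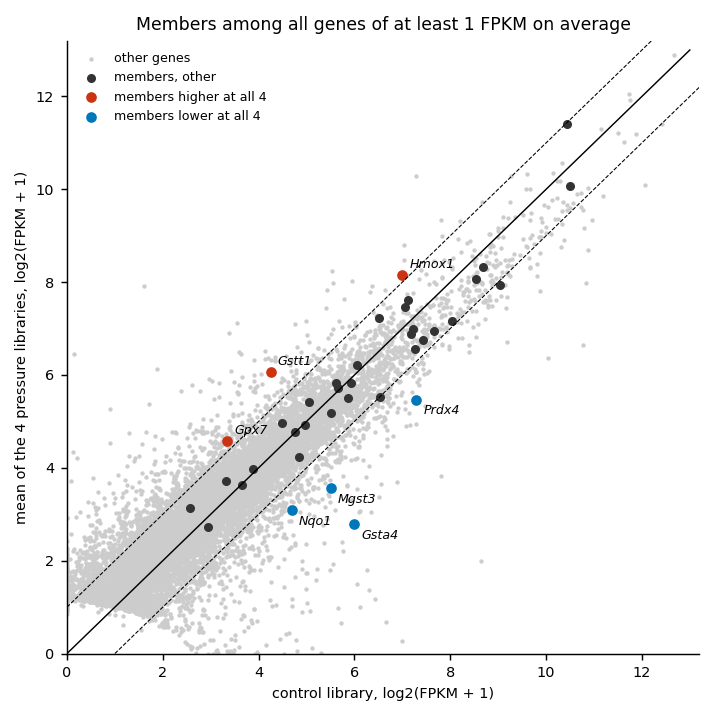
Control library (horizontal axis) and mean of the 4 pressure libraries (vertical axis), both in log2(FPKM + 1), for the 12113 genes that passed the filter (grey) and the 38 measured members (coloured or black), with a line of equality and dashed lines at a difference of 1. The coloured points are Hmox1, Gpx7 and Gstt1 above the band and Nqo1, Prdx4, Gsta4 and Mgst3 below it, and Txn1 and Sod1 lie at its lower edge.

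The NRF2 regulators themselves stayed inside the size rule. Nfe2l2, which encodes NRF2, had 32.1, 39.5, 38.8, 43.7 and 45.1 FPKM at 0, -80, -120, -160 and -200 mmHg. All 4 pressure values lay above the control, and the largest ratio was 1.40 (interval 1.33 to 1.48) at -200 mmHg. Keap1, its repressor, had 11.5, 12.3, 11.9, 11.4 and 9.97 FPKM in the same order. The Keap1 values straddled the control, and only at -200 mmHg did the interval of the ratio, 0.789 to 0.949, leave 1.

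Among the usual NRF2 targets Hmox1, Nqo1, Gclc and Gclm, only Nqo1 lay below the control. Hmox1, Gclc and Gclm lay above it at all 4 pressures. Hmox1, which degrades haem to biliverdin, carbon monoxide and iron, had 127, 255, 288, 287 and 305 FPKM at 0, -80, -120, -160 and -200 mmHg. Every pressure library was above the control, by changes of 1.0, 1.18, 1.17 and 1.26, and the ratio was 2.01 (interval 1.93 to 2.09) at -80 mmHg and 2.41 (interval 2.32 to 2.50) at -200 mmHg. The change at -80 mmHg sat on the threshold, and Hmox1 was no longer higher at all 4 pressures under trimmed-mean scaling, upper-quartile scaling, a pseudocount of 5 FPKM or with the 50 most abundant genes left out. Nqo1, which reduces quinones by a pair of electrons, had 24.8, 6.54, 7.25, 7.53 and 8.74 FPKM. All 4 pressure libraries were far below the control, with a ratio of 0.264 (interval 0.222 to 0.312) at -80 mmHg and 0.352 (interval 0.303 to 0.408) at -200 mmHg. Srxn1, the sulfiredoxin that restores overoxidised peroxiredoxins, had 25.8 to 26.9 FPKM under pressure, against 26.1 FPKM in the control, and every interval of its ratio held 1.

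**Figure D3:**
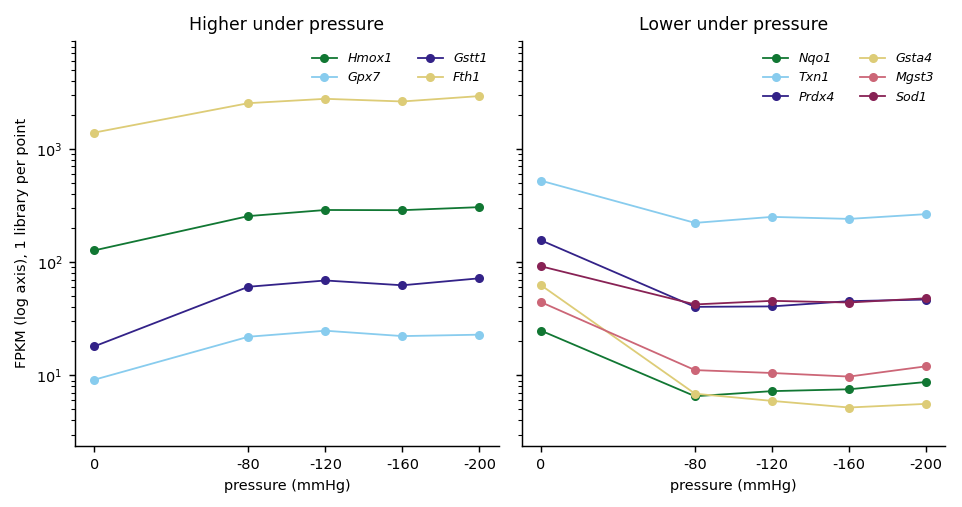
FPKM (log axis) of the 10 members that passed the size rule at 1 or more pressures, in each of the 5 libraries from 0 to -200 mmHg (1 point per library), with those higher under pressure in the left panel and those lower in the right. For Hmox1 the 4 pressure libraries lie between 255 and 305 FPKM, against 127 in the control, and for Nqo1 between 6.54 and 8.74 FPKM, against 24.8.

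Promoter windows of RefSeq (build GRCm38.p6), from 250 bases before to 50 bases after each start, were given for 33 of the 39 genes. There was none for Gsta4, Prdx6, Hmox1, Gclc, Sod3 and Gsr. The core of the antioxidant response element, spelled TGACNNNGC and searched on both strands, was found in 9 of these 33 genes (27.3%), beside 14.0% of 27025 genes with a window. By window, 9 of 41 (22.0%) held it, beside 12.4% of all 32851. The 9 genes were Nfe2l2, Gclm, Srxn1, Txnrd1, Prdx1, Gstm5, Mgst1, Sod1 and G6pdx. The AP-1 letters TGANTCA, which share bases with the element, were found in 4 of 33 genes (12.1%), beside 8.97% of all. The promoters of Gclm, Prdx1 and Sod1 are shown because they place the same letters upstream of a gene that lay above the control and a pair that lay below it. Each is the 250 bases before the start on the plus strand, 5′ to 3′, with the match in capitals, from chr3:122245307-122245556, chr4:116685349-116685598 and chr16:90220512-90220761.
Gclm: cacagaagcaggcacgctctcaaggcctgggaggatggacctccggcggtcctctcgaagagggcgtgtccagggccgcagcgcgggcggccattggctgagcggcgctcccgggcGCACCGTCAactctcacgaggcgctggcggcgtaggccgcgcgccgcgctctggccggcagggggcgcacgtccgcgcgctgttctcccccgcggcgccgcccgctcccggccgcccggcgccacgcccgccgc
Prdx1: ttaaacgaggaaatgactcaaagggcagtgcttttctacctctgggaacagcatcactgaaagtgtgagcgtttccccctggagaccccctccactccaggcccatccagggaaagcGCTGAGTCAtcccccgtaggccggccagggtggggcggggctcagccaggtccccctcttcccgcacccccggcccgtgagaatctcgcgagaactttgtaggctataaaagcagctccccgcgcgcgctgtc
Sod1: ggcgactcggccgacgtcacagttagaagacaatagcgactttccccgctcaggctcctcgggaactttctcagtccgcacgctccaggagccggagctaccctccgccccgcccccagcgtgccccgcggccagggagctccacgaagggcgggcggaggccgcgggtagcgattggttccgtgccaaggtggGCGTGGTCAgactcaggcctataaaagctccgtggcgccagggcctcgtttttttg
In these genes the element reads GCACCGTCA, GCTGAGTCA and GCGTGGTCA, which is the motif on the minus strand, and its first base lies 134, 133 and 56 bases before the start. In Prdx1 the match overlaps an AP-1 match. A match is a run of letters and was not tied to binding here.

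The genes with a match in these windows did not move as a group. Gclm, Nfe2l2, Txnrd1, Mgst1 and G6pdx were above the control at all 4 pressures, and Prdx1 and Sod1 were below it at all 4. Of all genes, 51.5% were above and 33.3% below at all 4. Srxn1 and Gstm5 had mixed signs. None of the 7 members called at all 4 pressures held the letters in a window given here, and Hmox1 and Gsta4 had no window.

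Glutathione synthesis genes showed small differences. Gclc, the catalytic subunit of glutamate-cysteine ligase, which makes the first bond of glutathione, had 4.95, 7.76, 6.91, 8.77 and 8.01 FPKM at 0, -80, -120, -160 and -200 mmHg. Its ratio ranged from 1.40 (interval 1.21 to 1.61) at -120 mmHg to 1.77 (interval 1.55 to 2.03) at -160 mmHg, below the size rule in each library. Gclm, the modifier subunit that makes the ligase more efficient, had 8.93, 12.3, 12.0, 12.0 and 11.9 FPKM. The 4 pressure values of Gclm were nearly level, at 1.33 to 1.37 times the control. Gss, which adds glycine after that, had 5.40 to 5.80 FPKM under pressure, against 6.66 FPKM in the control. Gsr, which reduces oxidised glutathione with NADPH, had 14.2 to 16.2 FPKM under pressure, against 13.8 FPKM in the control, and its mean change over the pressures turned negative under trimmed-mean scaling. Gss lies across from Acss2 on the other strand, and Acss2 had 341 to 392 reads under pressure, against 103 in the control. No source used here states whether the counting used strand, and without it reads of such a pair cannot be told apart.

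Thioredoxin and the peroxiredoxins fell on both sides of the control. Txn1, the small protein that passes electrons to peroxiredoxins, had 523, 222, 251, 241 and 265 FPKM at 0, -80, -120, -160 and -200 mmHg. It was lower at -80, -120 and -160 mmHg, while its change of -0.98 at -200 mmHg missed the size rule. Txnrd1, the selenoenzyme that reduces thioredoxin, had 28.8 to 31.3 FPKM under pressure, against 21.4 FPKM in the control. Its largest ratio was 1.46 (interval 1.39 to 1.54), at -80 mmHg, so the reductase and its substrate lay on opposite sides of the control.

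Prdx4, the peroxiredoxin of the endoplasmic reticulum, had 156, 40.2, 40.6, 45.2 and 46.7 FPKM at 0, -80, -120, -160 and -200 mmHg. It was lower at all 4 pressures, with a ratio of 0.258 (interval 0.244 to 0.274) at -80 mmHg and 0.30 (interval 0.284 to 0.316) at -200 mmHg. Prdx1, the main cytosolic peroxiredoxin, had 132 to 158 FPKM under pressure, against 263 FPKM in the control, and its change at -80 mmHg, -0.99, was just short of the size rule. Prdx6, which uses glutathione, had 17.2 to 18.1 FPKM under pressure, against 27.5 FPKM in the control. Prdx2, cytosolic and abundant in red cells, had 113 to 139 FPKM under pressure, against 149 FPKM in the control. Prdx3, a mitochondrial form, had 47.9 to 55.4 FPKM under pressure, against 49.7 FPKM in the control. Prdx5, found in mitochondria, peroxisomes and cytosol, was the family member that lay above the control in every pressure library, at 182 to 209 FPKM, against 137 FPKM. Prdx3 was above the control at 3 of the 4 pressures, and its mean change turned negative under trimmed-mean scaling.

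The make-up of the peroxiredoxin transcripts differed accordingly. The summed level of the 6 genes was 533 to 625 FPKM under pressure, against 782 FPKM in the control. Prdx4 made up 6.94% to 7.95% of that sum under pressure, against 19.9% in the control. Prdx5 made up 33.3% to 34.7% under pressure, against 17.6% in the control. Prdx5 overlaps Trmt112 on the opposite strand, which had 916 to 1141 reads under pressure, against 1338 in the control, and Prdx2 overlaps Rnaseh2a and Junb in the same way.

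**Figure D4:**
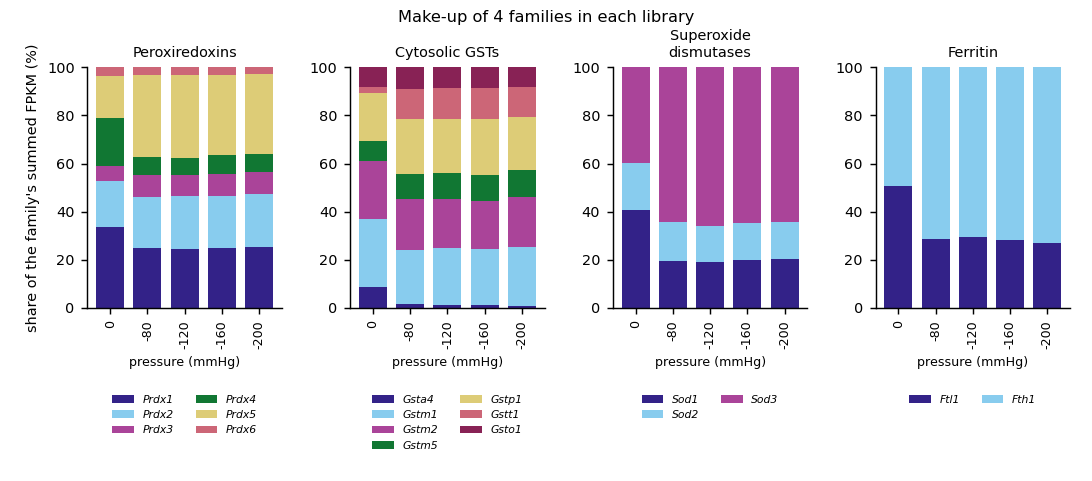
Share of each family's summed FPKM taken by each member, in percent, for the peroxiredoxins, cytosolic glutathione transferases (GSTs), superoxide dismutases and ferritin subunits, with 1 bar per library and 0 mmHg first. Among the superoxide dismutases Sod3 takes 64.3% to 66.0% under pressure, against 39.6% in the control.

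The glutathione peroxidases of the list fall into forms with selenocysteine, the selenium amino acid read from a TGA codon, and forms with cysteine at the same place. The coding sequence around this codon is shown for the 5 genes because the member that was higher under pressure belongs to the cysteine forms. Codon positions come from the GENCODE M21 annotation (GRCm38), the codon is in capitals, and the stretches are on chr9:108339439-108339465 (plus), chr11:54907244-54907270 (plus), chr10:80054725-80054751 (plus), chr4:108403418-108403444 (minus) and chr13:113045649-113045675 (minus).
Gpx1: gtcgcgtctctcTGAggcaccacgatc
Gpx3: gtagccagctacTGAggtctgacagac
Gpx4: gtggcctcgcaaTGAggcaaaactgac
Gpx7: gtagctagcgaaTGTggcttcacagac
Gpx8: gtggctagtgacTGCcgcttcacagac
Gpx1, Gpx3 and Gpx4 carry TGA, which the annotation marks as selenocysteine, and Gpx7 and Gpx8 carry the cysteine codons TGT and TGC.

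Gpx7, an endoplasmic reticulum peroxidase that passes oxidation on to protein disulphide isomerase, had 9.15, 21.9, 24.8, 22.2 and 22.9 FPKM at 0, -80, -120, -160 and -200 mmHg. It was higher at all 4 pressures, with a ratio of 2.40 (interval 2.03 to 2.83) at -80 mmHg and 2.71 (interval 2.31 to 3.19) at -120 mmHg. With a pseudocount of 5 FPKM its mean change was 0.98 and it was no longer higher at all 4 pressures. Gpx8, the other cysteine form and also of the endoplasmic reticulum, had 83.5 to 106 FPKM under pressure, against 152 FPKM in the control, with ratios between 0.549 and 0.700. The cysteine forms thus lay on opposite sides of the control. Gpx1, the main cytosolic peroxidase, had 245 to 284 FPKM under pressure, against 369 FPKM in the control. Gpx4, which reduces lipid peroxides in membranes and holds back ferroptosis, had 292 to 338 FPKM under pressure, against 408 FPKM in the control. Gpx1 and Gpx4 were below the control at all 4 pressures, but their mean changes of -0.48 and -0.36 turned positive under quantile normalization. Gpx3, the secreted plasma form, had 32 reads in the control and 6, 1, 6 and 8 reads at -80, -120, -160 and -200 mmHg, too few for the filter. Reads of Gpx4 could be shared with its processed copy Gpx4-ps2, which had 533 to 708 reads under pressure, against 925 in the control.

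Among the glutathione transferases, which couple glutathione to electrophiles, the largest changes of the list were found. Gsta4, which clears the lipid peroxidation product hydroxynonenal, had 62.5, 6.88, 5.95, 5.20 and 5.60 FPKM at 0, -80, -120, -160 and -200 mmHg. Every pressure library lay far below the control, with a ratio of 0.110 (interval 0.0922 to 0.131) at -80 mmHg and 0.0832 (interval 0.0680 to 0.101) at -160 mmHg. Gstt1, a theta class enzyme that acts on small halogenated compounds and peroxides, had 18.0, 60.5, 68.8, 62.4 and 71.9 FPKM. All 4 pressure libraries were above the control, with a ratio of 3.36 (interval 3.03 to 3.72) at -80 mmHg and 3.99 (interval 3.61 to 4.40) at -200 mmHg. Mgst3, a membrane-bound form with peroxidase activity, had 44.3, 11.1, 10.5, 9.75 and 12.0 FPKM. It was lower at all 4 pressures, with a ratio between 0.220 (interval 0.187 to 0.258) at -160 mmHg and 0.271 (interval 0.234 to 0.313) at -200 mmHg.

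The other transferases stayed inside the size rule. The mu class genes Gstm1 and Gstm2 had 110.2 to 139.6 and 98.4 to 120.4 FPKM under pressure, against 203 and 171 FPKM in the control. Gstm5, of the same class, had 51.7 to 65.7 FPKM under pressure, against 60.0 FPKM in the control, with the -200 mmHg library above the control and the others below it. Gstp1, the pi class enzyme common in cultured cells, had 110.0 to 128 FPKM under pressure, against 144 FPKM in the control. Gsto1, the omega class form that reduces mixed disulphides, had 42.7 to 46.4 FPKM under pressure, against 57.3 FPKM in the control. Mgst1, the other membrane-bound form, had 162 to 192 FPKM under pressure, against 132 FPKM in the control, on the opposite side from Mgst3.

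Within the 7 cytosolic transferases, Gstt1 made up 12.5% to 13.1% of the summed FPKM under pressure, against 2.52% in the control. Gsta4 made up 0.970% to 1.42% under pressure, against 8.73% in the control. Of the microsomal pair, Mgst3 made up 5.52% to 6.42% under pressure, against 25.1% in the control. Shares within a family do not depend on a factor that scales a whole library, but the length trend given below was not taken out of them. Gstm1, Gstm2 and their neighbours on chromosome 3 are similar in sequence, so reads could be split among them by the counting.

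The superoxide dismutases Sod1 and Sod3 lay on opposite sides of the control. Sod1, the cytosolic copper-zinc enzyme, had 91.8, 42.3, 45.5, 44.0 and 47.9 FPKM at 0, -80, -120, -160 and -200 mmHg. It passed the size rule as lower at -80 and -160 mmHg and lay within rounding of it at -120 mmHg, with a change of -1.0. Sod3, the secreted enzyme, had 141 to 157 FPKM under pressure, against 89.7 FPKM in the control, with ratios of 1.57 (interval 1.52 to 1.62) to 1.75 (interval 1.69 to 1.80). The ratio of Sod3 to Sod1 was 3.14 to 3.44 under pressure, against 0.977 in the control. Sod2, the mitochondrial manganese enzyme, had 34.2 to 35.7 FPKM under pressure, against 44.7 FPKM in the control. Cat, the peroxisomal catalase, had 27.6 to 30.6 FPKM under pressure, against 30.2 FPKM in the control, and its ratio had an interval that left 1 only at -120 mmHg (0.844 to 0.986). Sod1 overlaps Scaf4 on the opposite strand, which had 472 to 553 reads under pressure, against 662 in the control.

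The sugar-phosphate enzymes were close to the control. G6pdx, which makes NADPH in the first step of the pentose phosphate pathway, had 54.8 to 57.1 FPKM under pressure, against 47.8 FPKM in the control, with ratios of 1.15 to 1.19. Taldo1, a transaldolase of the same pathway, had 68.0 to 77.2 FPKM under pressure, against 65.9 FPKM in the control. Both lay above the control at all 4 pressures and by less than the size rule. G6pdx overlaps Ikbkg on the opposite strand, which had 1035 to 1213 reads under pressure, against 844 in the control.

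The ferritin subunits were the most abundant members, and they diverged. Ferritin stores iron in a shell of heavy subunits, which oxidise iron, and light subunits, which help to form the iron core. Its translation is held back by iron regulatory proteins, which bind a hairpin with a CAGTGN loop near the start of both transcripts. The hairpin is shown because both messages share it. It was found in the GENCODE M21 transcripts at chr19:9982733-9982760 (plus) for Fth1 and chr7:45459779-45459806 (minus) for Ftl1 in GRCm38, and the loop is in capitals.
Fth1: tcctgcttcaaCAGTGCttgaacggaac
Ftl1: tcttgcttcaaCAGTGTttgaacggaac
Fth1 had 1391, 2529, 2763, 2618 and 2921 FPKM at 0, -80, -120, -160 and -200 mmHg. All 4 pressure libraries were above the control, with a ratio of 1.82 (interval 1.80 to 1.83) at -80 mmHg and 2.10 (interval 2.08 to 2.12) at -200 mmHg, the single pressure at which the size rule was met. Ftl1 had 1020.1 to 1156 FPKM under pressure, against 1439 FPKM in the control, and was below the control at all 4 pressures, though its mean change turned positive under quantile normalization. The ratio of Fth1 to Ftl1 was 2.39 to 2.70 under pressure, against 0.967 in the control. Fth1 has 3469 nt of exon and Ftl1 1340 nt, and the length trend given below was not taken out of this ratio. Ferritin made up 54.9% to 55.7% of the summed FPKM of the members under pressure, against 42.8% in the control. Reads of Ftl1 could be shared with its copy Ftl1-ps1, which had 302 to 394 reads under pressure, against 434 in the control.

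None of the members moved in 1 direction at every step through 0, -80, -120, -160 and -200 mmHg with a log2 difference of 1 or more between lowest and highest, as 0.380% of all genes did upward and 0.388% downward. With fewer steps to pass, 4 members did so when the -120 mmHg library was left out, 4 without -160 mmHg, 2 without -200 mmHg and 0 without -80 mmHg, beside 2.71%, 2.44%, 2.10% and 3.33% of all genes in either direction. Over the 4 pressures alone, without the control, Nqo1, Prdx1, Prdx3 and Prdx4 were higher at each greater suction, 4 of 38 members, beside 5.67% of all genes. Keap1 was lower at each greater suction, 1 of 38, beside 6.19%. The 4 pressure libraries of a member lay close together: the highest pressure library was 1.03 to 1.34 times the lowest, with a median of 1.16, beside 1.20 over all genes.

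Within this small range the extremes fell in particular libraries. The -80 mmHg library was the lowest of the 4 pressures for 23 members, beside 25.9% of all genes, and the -200 mmHg library the highest for 24, beside 23.6%. Among the 22 members with a mean of at least 50 FPKM, -80 mmHg was lowest for 20 and -200 mmHg highest for 20, but 53.7% and 45.0% of all genes at that level had the same extreme. The ratio of the -200 to the -80 mmHg library had an interval above 1 in 24 members, below 1 in Keap1 and Txnrd1, and holding 1 in 12. Above 1 were thus 63.2% of the members, beside 18.0% of the 11783 genes with whole reads that passed the filter, and 95.5% of the members of at least 50 FPKM, beside 59.1% of all such genes. Its median was 1.14 over the members, against 0.990 over all genes, and 1.16 over the members of at least 50 FPKM, against 1.07 over all genes of that level. With 1 library at each pressure, a difference between libraries and a difference between pressures cannot be told apart.

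**Figure D5:**
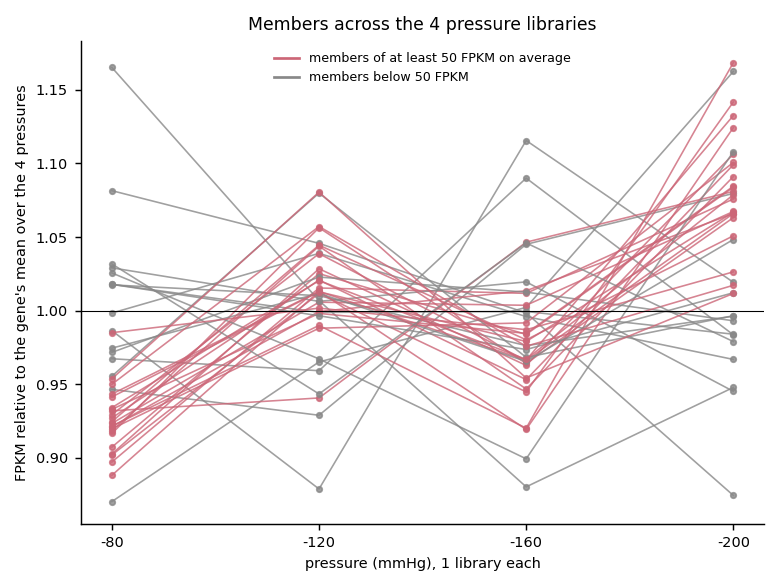
Members across the 4 pressures without the control, each line a gene's FPKM divided by its mean over the 4 pressure libraries, in red for members of at least 50 FPKM on average and grey for the others. The highest pressure library of a member is 1.03 to 1.34 times its lowest, and -200 mmHg is the highest for 24 of 38 members.

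The direction of change also went with transcript length over all genes. In 5 bins of exon length, the median change of all genes averaged over the pressures was -0.16 up to 1935 nt, then 0.01, 0.12 and 0.24, and 0.37 in the longest bin. The measured members are short, with a median exon length of 2122.5 nt, beside 4025 nt, and the bins hold 16, 11, 7, 2 and 2 of them. The trend was removed by subtracting the median change of all genes of like length. The members' median change was then -0.11 as the mean over the pressures, a value relative to those genes. Before removal, the members' median minus that of all genes was -0.37, -0.29, -0.37 and -0.27 in order of increasing suction. The gap to other genes was thus smaller after removal. The 7 members called at all 4 pressures remained called, and Sod1 joined them as lower. The source of the trend was not tested.

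A further list of 95 genes of NRF2 control, glutathione, thioredoxin, NADPH, iron and haem, none of them among the 39, was read in the same way. Of these, 82 passed the filter. At all 4 pressures 7 were higher (8.54%) and 3 were lower (3.66%), close to the 6.49% and 4.46% of all genes. Another 62 stayed inside the size rule throughout, as did 78.1% of all genes. Slc7a11, the cystine importer that feeds glutathione synthesis, had 3.10 to 3.76 FPKM under pressure, against 0.847 FPKM in the control. Nox4, an NADPH oxidase that makes hydrogen peroxide, had 2.70 to 3.50 FPKM under pressure, against 0.488 FPKM in the control. Both were low in every library but apart from the control. Gstk1, a kappa class transferase, had 49 to 99 reads under pressure, against 6 in the control. Gstm4, a mu class transferase, had 9.93 to 11.1 FPKM under pressure, against 4.11 FPKM in the control. The others that were higher at all 4 pressures were Pon2, a paraoxonase of internal membranes, Ggt7, of the gamma-glutamyltransferase family, and the sestrin Sesn3.

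Of that list, 3 genes were lower at all 4 pressures. Glrx, the cytosolic glutaredoxin that removes glutathione from proteins, had 7.17 to 8.42 FPKM under pressure, against 21.5 FPKM in the control. Gsto2, an omega class transferase beside Gsto1, had 18 to 28 reads under pressure, against 127 in the control. Msrb2, a mitochondrial methionine sulphoxide reductase, had 1.24 to 2.21 FPKM under pressure, against 5.88 FPKM in the control. Under a pseudocount of 5 FPKM none of the 10 named genes was called at all 4 pressures.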

How the data were processed

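The values are FPKM as the authors deposited them in 1 table, with 1 column for each of the 5 libraries. The tools named per the submitters' processing notes are featureCounts 1.5.0-p3, HISAT2 and SAMtools, and the build named is rn6, a rat build, while every gene ID in the table is a mouse ID. The counting settings, strand use included, are not given in the sources used here. Exon lengths of GENCODE M21 turned the deposited FPKM into whole reads (tolerance 0.001) in 54349 genes, 98.1% of 55401. These reads make up 96.9% to 97.3% of each inferred library total.

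The 39 genes and the further list were chosen with earlier results of these data known. Each member was given in all libraries where its log2(FPKM + 1) difference from the control reached 1 at any pressure or where it is a regulator or usual NRF2 target, and by its range otherwise. With 1 library per condition no test was run. Genes needed a mean of 1 FPKM, and intervals are exact Clopper-Pearson intervals of read ratios. Scaling, filter, pseudocount and size rule were varied. Sequences were read from RefSeq promoter windows and GENCODE M21 transcripts. Python 3.11.15, pandas 2.3.3 and scipy 1.17.1 were used.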

Additional observations from a re-analysis of the deposited data

How the results depend on the processing

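No paired analysis was possible because each condition is 1 library. Gstt1 as higher and Nqo1, Prdx4, Gsta4 and Mgst3 as lower at all 4 pressures were called under every setting run, and no called member changed direction. With a pseudocount of 5 FPKM, 1 member was higher at -80 mmHg and 1 at all 4 pressures, with Gpx7 and Hmox1 lost, and 0 further redox genes were higher and 0 lower. With a mean of at least 5 FPKM, 3 further genes were higher and 1 lower, since fewer genes were read. The members' median change, -0.18 as the mean over pressures, was -0.32 under trimmed-mean scaling and -0.23 under upper-quartile scaling. It was 0.035 under quantile normalization and -0.11 with the length trend removed, an alternative chosen after seeing the data. Trimmed-mean scaling subtracts the trimmed mean change of all genes at a pressure from every gene alike. That scaling therefore left the distance of the members from all genes as it was. With the length trend removed, -0.11 is relative to genes of like length, while -0.18 is relative to the control. For the other scalings the cause was not tested. Further genes higher and lower were 3 and 6 under trimmed-mean scaling, and the higher count was 4 under quantile normalization and 3 without the length trend. Members ordered through all 5 libraries numbered 1 under quantile normalization and 1 without the length trend, and 0 to 4 when each library was left out in turn (4 without -120 mmHg, 4 without -160 mmHg and 2 without -200 mmHg), where fewer steps need to agree. At a 1.5-fold rule, 5, 5, 6 and 7 members were higher and 12, 10, 11 and 8 lower in order of increasing suction, beside 25.2%, 22.2%, 24.2% and 23.2% of all genes higher and 15.4%, 13.9%, 14.0% and 14.1% lower. At all 4 pressures they were 5 and 7, beside 17.8% and 10.4%, with 14 and 12 further genes. Under trimmed-mean scaling Hmox1 was lost and Sod1 and Txn1 gained, which left 2 higher and 6 lower throughout. Besides the main rule, all-gene shares were counted at the 1.5-fold rule and for the order with 1 library left out. The other counts under changed settings have no such share beside them and cannot be set against all genes. Low reads limit Gpx3, and no setting replaces the missing replicate cultures.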

Other observations

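Several genes of the further redox list passed the size rule at some of the pressures only, and they are named here after their values were seen. Nfe2l1, a relative of NRF2 that raises proteasome genes, had 124 to 147 FPKM under pressure, against 63.4 FPKM in the control, and was higher at 3 of the 4 pressures. Ncoa4, the receptor that carries ferritin to lysosomes, had 4.61 to 6.26 FPKM under pressure, against 2.25 FPKM in the control, and was higher at 2. Chac1, which breaks down glutathione, had 62.6 to 67.2 FPKM under pressure, against 32.4 FPKM in the control, and was higher at 1. Cbr1, a carbonyl reductase, had 12.4 to 14.3 FPKM under pressure, against 28.6 FPKM in the control, and was lower at 3. Nqo2, a relative of Nqo1, had 4.13 to 5.26 FPKM under pressure, against 9.99 FPKM in the control, and was lower at 2. Blvrb, which reduces biliverdin, had 6.99 to 7.82 FPKM under pressure, against 15.3 FPKM in the control, and was lower at 1. These differences were not tested, and origin of the cells and pressure cannot be told apart in them either.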
